A study of Mus musculus with 4 samples.

Results

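The genes described here carry out or control class II antigen presentation: the MHC class II chains H2-Aa, H2-Ab1 and H2-Eb1, the invariant chain Cd74, the peptide loading factor subunits H2-DMa and H2-DMb1, the protease Ctss, the transcriptional coactivator Ciita and the costimulatory ligand Cd86. These 9 genes were chosen by name from their known roles, with earlier results of these data known. On the array, 8 of them were named alone by at least 1 probe set, out of 18193 genes so named, and together they had 17 probe sets of the 45037 in the table. H2-DMb1 was listed on 2 probe sets only together with its near-copy H2-DMb2, so it has no level here.

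MHC class II molecules present peptides from proteins taken up by a cell to CD4+ T cells. An alpha and a beta chain assemble in the endoplasmic reticulum around the invariant chain, which blocks the peptide groove and directs the complex to endosomes. There lysosomal proteases, Ctss among them, trim the invariant chain to a short remnant, and H2-DM exchanges that remnant for a peptide. Dendritic cells, B cells and macrophages express the pathway, and interferon gamma can induce it through Ciita, also in other cells. In the liver its usual carriers are Kupffer cells, the resident macrophages, and dendritic cells rather than hepatocytes.

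The samples were whole livers from C57BL/6 mice aged 4 weeks, 2 Cnot3KO and 2 Control, each hybridised to 1 array. The Cnot3 protein belongs to the Ccr4-Not deadenylase, which removes poly(A) tails and so promotes mRNA decay. In the Cnot3KO mice a floxed Cnot3 allele was deleted by Cre recombinase under the albumin promoter, which is active in hepatocytes, so the other cells of the liver were not the target of the deletion. The labels call the Control mice wild type, and the study's methods allow several genotypes as controls, with floxed alleles or with the Cre transgene, without saying which of them these 2 mice carried.

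Levels are log2 of the RMA intensity of a probe set, and differences are Cnot3KO minus Control on that log2 scale, with the standard error (SE) from limma. Every adjusted p is from limma's moderated test with Benjamini-Hochberg adjustment over 38405 probe sets that passed a filter on low values, with n = 2 arrays per group, and "rose" or "higher" in a count means an adjusted p under 0.05. The labels number the mice of each group but say nothing more of how the samples were taken, so p measures only the spread between these samples. Array medians were 3.09 and 3.09 in Cnot3KO and 3.11 and 3.14 in Control. The 75th percentiles were higher in Cnot3KO, at 5.53 and 5.51 against 5.35 and 5.28 in Control. The 20th percentiles were lower, at 1.54 and 1.55 against 1.64 and 1.69. Cnot3 itself had levels of 5.15 and 5.30 in Cnot3KO and 5.99 and 6.04 in Control on its main probe set, the one with the highest mean level, a difference of -0.79 ± 0.16 (SE, adjusted p = 0.0372). Its other probe set differed by -0.40 ± 0.19 (adjusted p = 0.217). Which part of the transcript these probe sets cover, and so whether they lie in the deleted part, was not examined. The hepatocyte gene Alb was at 13.74 and 13.79 in Cnot3KO and 13.84 and 13.73 in Control, near the top of the scale on every array of this liver RNA.

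Promoters of class II genes share a pair of short elements, an X box bound by the RFX complex and a Y box bound by NF-Y, on which Ciita is recruited without binding DNA itself. The RefSeq promoter table (GRCm38.p6, 250 bases before to 50 after each start site) held 6 windows for 5 of the 9 genes, namely H2-Aa, H2-Eb1, H2-DMa, H2-DMb1 and Ctss. Each window was searched on both strands for the letters ACNGATG as an X core, GATTGG as a Y core, GAAANNGAA as the core of an interferon-stimulated response element and TTCNNNGAA as a STAT core. Of 32851 promoters in the table, 9.85% held the X core, 16.1% the Y core, 8.56% the interferon response core and 8.3% the STAT core.

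The pair, an X core followed on the same strand by a Y core that starts 20 to 40 bases later, was far rarer, at 22 of 32851 promoters (0.067%), and 2 of those 22 belong to members. The stretches below are shown because they carry the pair, or the Y core alone in H2-Aa, and are printed on the strand of the gene with X and Y cores in capitals. They lie at chr17:34305759-34305852 (+) for H2-Eb1, chr17:34153080-34153174 (+) for H2-DMb1 and chr17:34287826-34287920 (-) for H2-Aa.
H2-Eb1: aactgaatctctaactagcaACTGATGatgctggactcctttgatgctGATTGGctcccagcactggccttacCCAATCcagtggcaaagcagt
H2-DMb1: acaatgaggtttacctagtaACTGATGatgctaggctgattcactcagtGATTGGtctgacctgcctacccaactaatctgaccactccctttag
H2-Aa: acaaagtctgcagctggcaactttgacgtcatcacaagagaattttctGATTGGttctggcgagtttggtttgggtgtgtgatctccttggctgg

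In H2-Eb1 the X core began 88 bases before the start site and the Y core 28 bases after the start of the X core, and the third run of capitals is a second Y core on the opposite strand. In H2-DMb1 the X core began 91 bases before the start site and the spacing was 29 bases. H2-Aa had its Y core 49 bases before the start site, while the letters of the X core appeared in its window only far upstream and on the opposite strand. Of the 2 H2-DMa windows, 1 held a Y core and neither held the pair, and no window of a member held the STAT core. A match to these letters is a description and not a bound site.

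The pair was found in 20 genes, 5 of them on chromosome 17, where H2-DMb2 and H2-Eb2 joined the 2 members. Of those 20 genes 13 were measured, and 2 of the 13 rose by their main probe sets, against 12.2% of all 16758 genes. The 2 were H2-Eb1 and Scaper, a gene outside antigen presentation. H2-DMb2 and H2-Eb2, relatives of the loading factor and of the beta chain, had differences of -0.06 and -0.03 (adjusted p = 0.852 and 0.925). Whether these differences depart from that of H2-Eb1 was not tested.

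Ctss is shown for another element. It held the interferon response core, in capitals below, 21 to 13 bases before its start site, within chr3:95526745-95526793 (+).
Ctss: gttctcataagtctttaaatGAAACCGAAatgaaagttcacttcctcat

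Of the 17 member probe sets 12 rose and 0 fell, against 8.48% of all 38405 probe sets that rose. By their main probe sets, 6 of the 8 genes rose and 0 fell, against 12.2% of 16758 genes that rose and 4.64% that fell. The median difference over the 8 genes was 1.56, against 0.00199 over all genes. Both Cnot3KO arrays lay above both Control arrays in 14 of the 17 probe sets, an arrangement found in 26.9% of all probe sets. The 12 that rose differed by 1.28 to 2.29, or 2.43- to 4.88-fold, with adjusted p of 0.00512 to 0.0218. In these 12, the gap between the lowest Cnot3KO array and the highest Control array was 1.17 to 2.01, and the largest gap between arrays of 1 group was 0.70. RNA from whole tissue cannot tell more cells of a type from more RNA per cell, and this holds for each result below. All 17 probe sets passed the filter, but 1443783_x_at of H2-Aa did so through the Cnot3KO arrays alone and 1447075_at of Ciita through 1 Control array alone. Leaving out that H2-Aa probe set, 11 of 16 rose. At an unadjusted p under 0.05, 0 member probe sets fell.

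**Figure D1:**
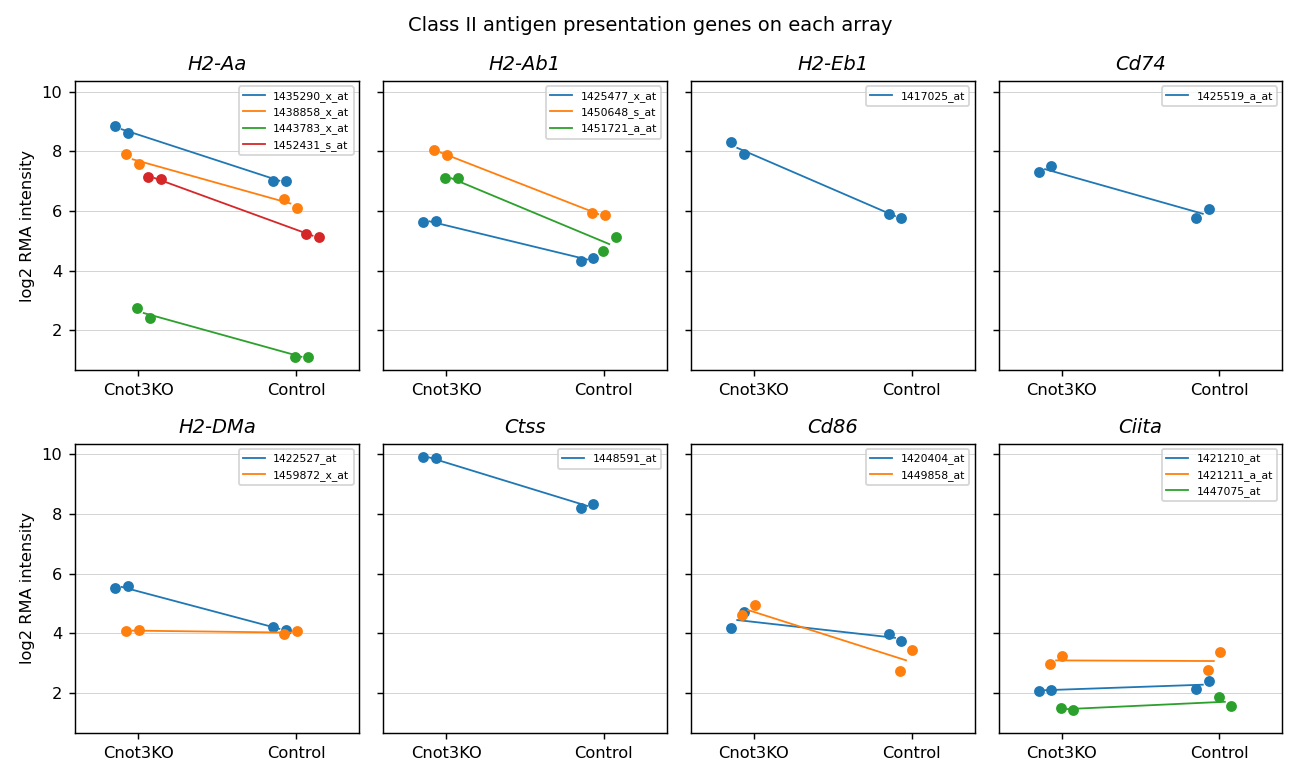
Log2 RMA intensity of every member probe set, 1 panel per gene, with Cnot3KO on the left and Control on the right; each point is 1 array (n = 2 per group) and each line joins the group means of 1 probe set. The chains, Cd74 and Ctss slope down to Control on every probe set, while the Ciita lines are nearly level at low intensity.

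The class II chains rose on all 8 of their probe sets, or 7 of 7 without the H2-Aa probe set kept through the Cnot3KO arrays alone. H2-Eb1, the beta chain of the I-E molecule, had levels of 8.33 and 7.91 in Cnot3KO and 5.90 and 5.76 in Control. Both Cnot3KO arrays were over 2 log2 units above both Control arrays, and the difference was 2.29 ± 0.21, a 4.88-fold rise (95% interval 3.41 to 6.99, adjusted p = 0.00636). This was the highest difference among the member probe sets. The gene of its alpha partner, H2-Ea, is inactive in mice of the C57BL/6 background, and its probe set had levels of 5.06 and 5.04 in Cnot3KO and 5.23 and 5.49 in Control, a difference of -0.31 ± 0.17 (adjusted p = 0.289).

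H2-Ab1, the beta chain of the I-A molecule, was measured by 3 probe sets. Its main probe set 1450648_s_at had levels of 8.05 and 7.88 in Cnot3KO and 5.93 and 5.86 in Control, with a difference of 2.06 ± 0.17, or 4.18-fold (95% interval 3.14 to 5.58, adjusted p = 0.00512). Probe set 1451721_a_at had levels of 7.10 and 7.09 in Cnot3KO and 4.65 and 5.13 in Control, with a difference of 2.21 ± 0.21 (adjusted p = 0.00716). The groups were separate on both, although the Control arrays stood 0.47 apart on the second. Probe set 1425477_x_at had levels of 5.64 and 5.67 in Cnot3KO and 4.31 and 4.43 in Control, and its difference of 1.28 ± 0.16 (adjusted p = 0.0117) was the lowest among the 12 that rose. The 95% interval of that difference, 0.88 to 1.68, barely met the interval of 1.67 to 2.74 for 1451721_a_at. The 2 were not tested against each other, and a probe set ending in _x_at can also bind related transcripts.

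H2-Aa, the alpha chain of I-A, had 4 probe sets, all of the kind ending in _x_at or _s_at. The main one, 1435290_x_at, had levels of 8.86 and 8.62 in Cnot3KO and 7.01 and 7.02 in Control, with a difference of 1.73 ± 0.17, or 3.31-fold (95% interval 2.45 to 4.47, adjusted p = 0.00739). On 1452431_s_at the levels were 7.14 and 7.07 in Cnot3KO and 5.22 and 5.13 in Control, a difference of 1.93 ± 0.16 (adjusted p = 0.00561). Neither probe set had an array near the other group. On 1438858_x_at the levels were 7.90 and 7.57 in Cnot3KO and 6.40 and 6.10 in Control, a difference of 1.48 ± 0.21 (adjusted p = 0.0146). The dim probe set 1443783_x_at had levels of 2.75 and 2.40 in Cnot3KO and 1.12 and 1.10 in Control, where it lay at the 5.9th and 5.5th percentile of the arrays, and its fitted difference was 1.47 ± 0.19 (adjusted p = 0.0123). Since its Control levels are at the low end of the scale, that size is not set against the other 3, which spanned 1.48 to 1.93.

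Cd74, the invariant chain, was measured by 1 probe set, with levels of 7.30 and 7.50 in Cnot3KO and 5.75 and 6.06 in Control. The groups were 1.24 apart at their nearest arrays, and the difference was 1.50 ± 0.19, or 2.82-fold (95% interval 2.02 to 3.95, adjusted p = 0.0121). Without the first Control array the difference was 1.34 and the adjusted p 0.052, over the threshold. By main probe sets, Cd74 was the single gene of the 6 whose call was lost when an array was left out.

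H2-DMa, the alpha chain of the factor that loads peptides, was split between its probe sets. The main one, 1422527_at, had levels of 5.51 and 5.60 in Cnot3KO and 4.20 and 4.10 in Control, a difference of 1.40 ± 0.16, or 2.65-fold (95% interval 2 to 3.5, adjusted p = 0.00968). The other, 1459872_x_at, had levels of 4.06 and 4.11 in Cnot3KO and 3.99 and 4.06 in Control. Its groups were all but touching, and the difference of 0.07 ± 0.16 had a 95% interval of -0.33 to 0.46 (adjusted p = 0.81), which does not reach the difference of the main probe set.

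Ctss, cathepsin S, makes the late cut of the invariant chain in antigen-presenting cells. Its probe set had levels of 9.92 and 9.88 in Cnot3KO and 8.21 and 8.34 in Control, with the arrays of each group close together and no overlap. The difference was 1.62 ± 0.16, or 3.08-fold (95% interval 2.33 to 4.09, adjusted p = 0.00741).

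Cd86 delivers the costimulatory signal to the T cell receptor Cd28 and is not part of the class II complex. Its main probe set 1420404_at had levels of 4.19 and 4.70 in Cnot3KO and 3.97 and 3.73 in Control. The groups were apart by 0.22, less than the 0.52 between the Cnot3KO arrays, and the difference of 0.60 ± 0.23 did not pass (adjusted p = 0.157). On 1449858_at the levels were 4.61 and 4.94 in Cnot3KO and 2.74 and 3.44 in Control, a difference of 1.68 ± 0.28 that passed (adjusted p = 0.0218). The call for Cd86 therefore depends on the probe set that stands for it, and with the mean of the pair the difference was 1.14 (adjusted p = 0.0213).

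Ciita is the coactivator on which transcription of the chains, Cd74 and H2-DM depends, and none of its 3 probe sets passed. The main one, 1421211_a_at, had levels of 2.95 and 3.23 in Cnot3KO and 2.77 and 3.37 in Control. The Cnot3KO arrays lay between the Control arrays, and the difference was 0.02 ± 0.25 (95% interval -0.62 to 0.66, adjusted p = 0.965), with a sign that turned under other centrings. On 1421210_at the levels were 2.08 and 2.10 in Cnot3KO and 2.14 and 2.41 in Control, and on 1447075_at they were 1.49 and 1.43 in Cnot3KO and 1.86 and 1.55 in Control. On both the Cnot3KO arrays were below the Control arrays, by -0.18 ± 0.18 and -0.25 ± 0.18 in the means (adjusted p = 0.515 and 0.409). The main probe set lay between the 44.6th and 53.6th percentile of its arrays, so the signal was low, and the upper end of the interval allows up to a 1.58-fold rise on that probe set. A change in Ciita was not detectable here, which does not show that its level was the same.

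**Figure D2:**
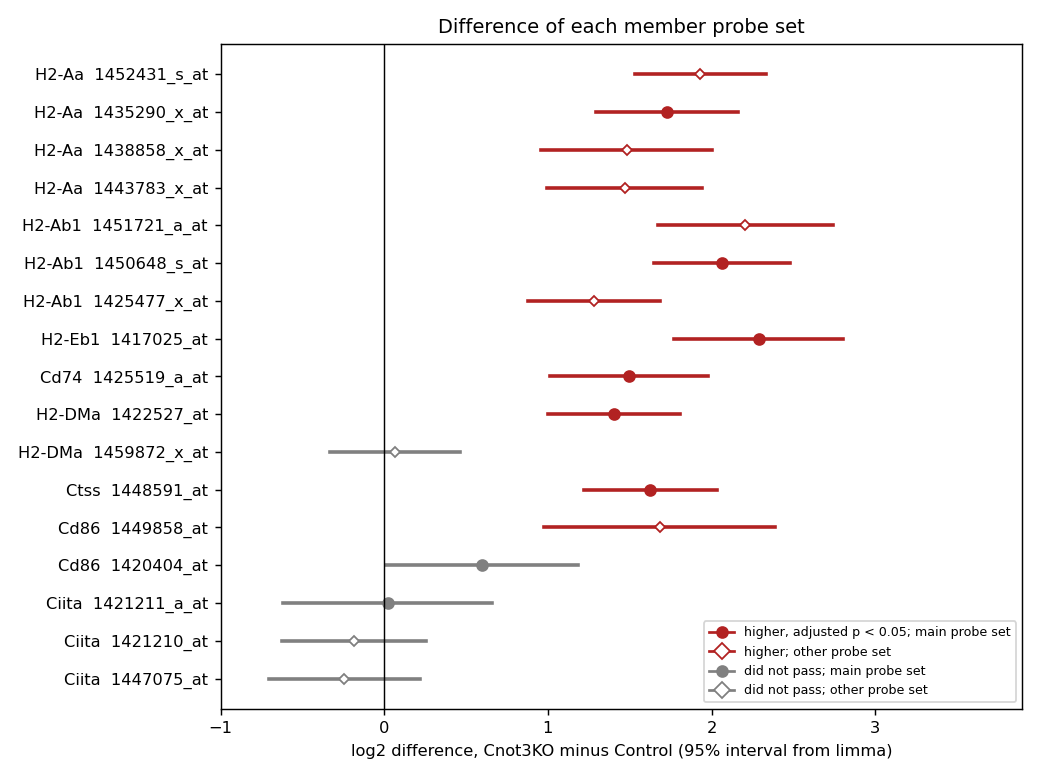
Log2 difference, Cnot3KO minus Control, of the 17 member probe sets with the 95% interval from limma (n = 2 arrays per group); filled circles are the main probe set of a gene, open diamonds its other probe sets, and red marks an adjusted p under 0.05. The 12 red intervals all lie above 0, and the probe sets of H2-DMa and Cd86 fall on both sides of the threshold while those of Ciita stay around 0.

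Among 18 measured partners in processing and loading, 7 rose and 2 fell, with a median difference of 0.47, but with any 1 array left out only 2 to 3 rose and 0 to 2 fell. The proteases and their inhibitor made up most of those that rose. Lgmn, an endosomal asparagine-specific protease that opens antigens and the invariant chain, had levels of 9.04 and 8.79 in Cnot3KO and 7.02 and 7.12 in Control, a difference of 1.84 ± 0.18 (adjusted p = 0.00709). Cstb, an inhibitor of cysteine cathepsins, had levels of 11.22 and 10.89 in Cnot3KO and 9.13 and 9.13 in Control, a difference of 1.92 ± 0.19 (adjusted p = 0.0072). Both genes had Cnot3KO arrays well clear of the Control arrays. The cathepsins Ctsz, Ctsd, Ctsc and Ctsl rose by 1.17, 0.94, 0.89 and 0.88, while Ctsb and Ctsh differed by 0.48 and 0.45 and did not pass (adjusted p = 0.109 and 0.173). Some other probe sets of Ctsz, Ctsc and Ctsl did not pass, among them 1 of Ctsl at -0.60 (adjusted p = 0.369). Ifi30, a thiol reductase that unfolds antigens for class II, rose by 0.83 ± 0.16 (adjusted p = 0.0293).

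The 2 partners that fell act on class II or Cd74 after assembly. Marchf8, a membrane ubiquitin ligase that can direct class II and Cd86 to breakdown, had levels of 5.98 and 5.64 in Cnot3KO and 7.99 and 7.22 in Control. Its groups were separate although the Control arrays stood 0.77 apart, and it fell by 1.80 on the log2 scale (SE 0.30, adjusted p = 0.022). Marchf1, the related ligase of antigen-presenting cells, differed by 0.79 on its main probe set (adjusted p = 0.0518), by 1.18 on another (adjusted p = 0.0237) and by -0.20 on the remaining one (adjusted p = 0.45), so its direction is not settled. Sppl2a, the intramembrane protease that clears the last remnant of Cd74, had levels of 7.25 and 7.41 in Cnot3KO and 8.62 and 8.50 in Control. It fell by 1.23 on that probe set (SE 0.17, adjusted p = 0.0137), while its other probe sets differed by -0.19 and -0.30 and did not pass (adjusted p = 0.506 and 0.266). The remaining class II genes H2-Oa, H2-Eb2 and H2-DMb2 differed by 0.17, -0.03 and -0.06, and none passed.

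Of 16 regulators of class II transcription, 3 rose and 0 fell in limma, with a median of 0.08, and at an unadjusted p under 0.05 these counts were 5 and 3. With 1 array left out 0 to 2 rose, and 0 did so without the first Cnot3KO or the first Control array. Rfx5, the RFX subunit that contacts the X box, had levels of 6.46 and 6.40 in Cnot3KO and 5.26 and 5.35 in Control, a difference of 1.13 ± 0.16 (adjusted p = 0.015). Its partners Rfxap and Rfxank differed by 0.03 and 0.38 (adjusted p = 0.912 and 0.421), and the NF-Y subunits Nfya, Nfyb and Nfyc by 0.59, -0.56 and 0.50 (adjusted p = 0.078, 0.077 and 0.157). A second probe set of Nfyb fell by 0.97 on the log2 scale (adjusted p = 0.026), and other probe sets of Creb1 and Zxdc rose by 0.82 and 0.73 (adjusted p = 0.0348 and 0.0399), while the main ones of these 3 genes did not pass. Nlrc5, a relative of Ciita that acts on class I genes, had levels of 7.93 and 7.12 in Cnot3KO and 6.13 and 5.92 in Control. It rose by 1.50 ± 0.30 (adjusted p = 0.0337), with Cnot3KO arrays that stood apart from each other and above both Control arrays. Smarca4, the ATPase of a chromatin remodelling complex, rose by 1.00 ± 0.20 (adjusted p = 0.0343), and on its other probe set the difference of 0.77 did not pass (adjusted p = 0.212). The coactivator Kat2b differed by -0.82 (adjusted p = 0.104).

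Of 16 genes of interferon gamma signalling, 3 rose and 0 fell in limma, with a median of 0.57, and at an unadjusted p under 0.05 these counts were 8 and 1. With 1 array left out 1 to 2 rose, the lower count without the first Control array. Irf1, a transcription factor that switches on Ciita and class I genes, had levels of 8.16 and 8.17 in Cnot3KO and 6.94 and 6.83 in Control, a difference of 1.28 ± 0.16 (adjusted p = 0.0115). Gbp2, an interferon-induced GTPase, rose by 2.01 ± 0.22 (adjusted p = 0.00931), and the receptor chain Ifngr1 by 0.92 ± 0.19 (adjusted p = 0.0351). The cytokine itself, Ifng, stayed dim, at 1.31 and 1.64 in Cnot3KO and 1.18 and 1.27 in Control, a difference of 0.25 ± 0.19 (adjusted p = 0.409). Cxcl10, an interferon-induced chemokine, had levels of 6.71 and 8.10 in Cnot3KO and 4.31 and 5.60 in Control. Its groups did not overlap, but arrays of 1 group were over 1 log2 unit apart, and the difference of 2.45 ± 0.60 did not pass (adjusted p = 0.0559). Cxcl9, a chemokine induced mainly by interferon gamma, differed by -0.03 and -0.39 on its probe sets (adjusted p = 0.974 and 0.379), and Ido1, an enzyme induced by it, by -0.01 (adjusted p = 0.976).

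Costimulation and adhesion genes other than Cd86 numbered 19, of which 6 rose (4 to 5 with 1 array left out) and 0 fell, with a median of 0.48. The 4 with the highest differences among those that rose were Cd274, the inhibitory ligand PD-L1, with 2.12 ± 0.20 (adjusted p = 0.00701), Cd83, a surface protein that keeps class II and Cd86 on the membrane of dendritic cells, with 1.83 ± 0.21 (adjusted p = 0.00974), Cd48 with 1.75 ± 0.32 (adjusted p = 0.0264) and Cxcr4 with 1.44 ± 0.17 (adjusted p = 0.00973). Cd80, the other ligand of Cd28, had levels of 2.53 and 1.64 in Cnot3KO and 1.94 and 1.93 in Control, and its difference of 0.15 ± 0.31 did not pass (adjusted p = 0.781).

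Class I presentation was measured by 15 genes, taken by their main probe sets. Of these genes 7 rose (4 to 6 with 1 array left out, 4 without the first Cnot3KO or the first Control array) and 0 fell, with a median of 0.53. Those with the highest differences were the immunoproteasome subunits Psmb8, Psmb9 and Psmb10, which cut cytosolic proteins into peptides, with 2.54 ± 0.16, 2.21 ± 0.19 and 1.78 ± 0.20 (adjusted p = 0.00422, 0.00584 and 0.00971), and the peptide transporter subunit Tap1 with 2.06 ± 0.27 (adjusted p = 0.0131), whose other probe set differed by -0.18 (adjusted p = 0.481). The class I heavy chain H2-K1 and its partner B2m had differences of 0.09 and -0.11 and did not pass (adjusted p = 0.755 and 0.687). Another heavy chain, H2-D1, differed by 0.53 on its main probe set and did not pass (adjusted p = 0.0996), although both Cnot3KO arrays were above both Control arrays. Its 7 other probe sets had differences of both signs, and none passed. H2-K1, B2m and H2-D1 were not tested against the class II chains.

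**Figure D3:**
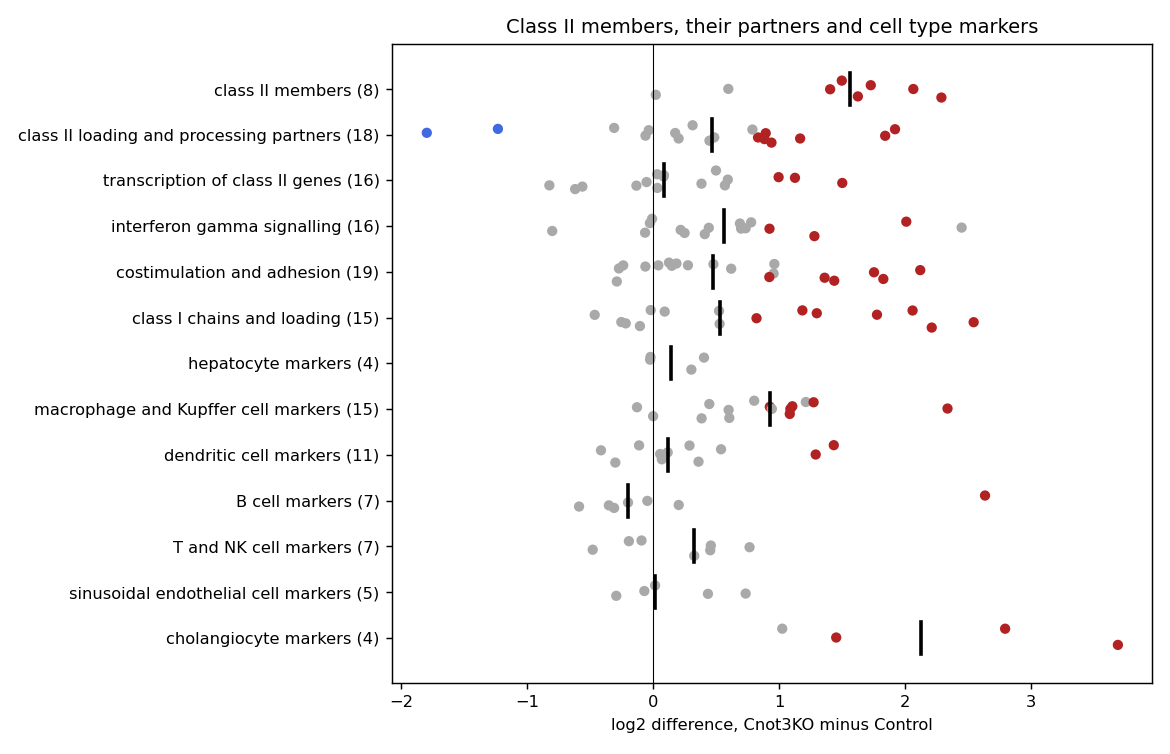
Log2 difference, Cnot3KO minus Control, of the main probe set of each gene (1 point per gene, number measured in brackets) in the class II members, their partners and the marker lists; red rose and blue fell at an adjusted p under 0.05, grey did not pass, and black bars are medians. The class II members have their median at 1.56, against 0.47 for their partners, 0.93 for macrophage and Kupffer cell markers and 0.12 for dendritic cell markers.

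Among the 15 markers of macrophages and Kupffer cells, 6 rose and 0 fell, with a median of 0.93, and 14 lay above the array median on all 4 arrays. With either Cnot3KO array left out 1 rose, and with either Control array left out 3 rose. The highest differences among those that rose were in Cd68 with 2.34 ± 0.23 (adjusted p = 0.00727), the complement subunit C1qb with 1.27 ± 0.20 (adjusted p = 0.0178), Cd5l with 1.10 ± 0.18 (adjusted p = 0.0206) and C1qc with 1.09 ± 0.21 (adjusted p = 0.0298). The Kupffer cell lectin Clec4f differed by 0.60 ± 0.18 (adjusted p = 0.0908), Adgre1, which encodes the macrophage antigen F4/80, by 0.80 ± 0.35 (adjusted p = 0.19), and Timd4, a marker of long-resident Kupffer cells, by -0.13 ± 0.22 (adjusted p = 0.722). Ccr2 was split between its probe sets. It differed by -0.00034 on its main probe set and is not among those that rose. Its other, dimmer probe sets rose by 1.23 and 1.10 (adjusted p = 0.0139 and 0.0264). Apart from C1qb, no other gene of the list had a further probe set that rose. The summed linear intensity of the list was 5453 and 6207 in Cnot3KO and 3156 and 3002 in Control, 1.77 and 2.02 times the Control mean in Cnot3KO. The sum over the 8 class II members was 2247 and 2076 in Cnot3KO and 640.2 and 673.4 in Control, 3.42 and 3.16 times the Control mean. The part of the macrophage markers in the class II result was not tested.

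Of 11 dendritic cell markers, 2 rose (0 without the first and 1 without the second Cnot3KO array) and 0 fell, with a median of 0.12, and the summed intensity was 202.9 and 199 in Cnot3KO and 139.4 and 125.4 in Control. Those that rose were Itgax, the integrin CD11c, with 1.43 ± 0.19 (adjusted p = 0.0125), and Irf8, a factor of macrophages and dendritic cells, with 1.29 ± 0.22 (adjusted p = 0.0227). The defining genes Flt3, Zbtb46 and Xcr1 differed by 0.29, -0.41 and 0.06, did not pass, and Xcr1 lay below the array median on all arrays. Their part in the class II result was not tested.

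Of 7 B cell markers 1 rose, Blnk, by 2.63 ± 0.33 (adjusted p = 0.0116), and the median was -0.20. The summed intensity was 241.9 and 204 in Cnot3KO and 138.7 and 119.6 in Control, but without Blnk it was 92.5 and 116.5 in Cnot3KO and 116.3 and 104.4 in Control, where the groups overlap. The defining genes Cd79a and Ms4a1 were dim, at 2.16 and 2.75 and at 1.88 and 2.68 in Cnot3KO, against 2.66 and 2.64 and 2.52 and 2.66 in Control. Of 7 T and NK cell markers and 5 sinusoidal endothelial cell markers none rose or fell in limma, with medians of 0.33 and 0.02, and at an unadjusted p under 0.05 these counts were 1 and 1 for the T and NK cell list and 0 and 0 for the endothelial list. Of 4 hepatocyte markers 0 rose and 0 fell in limma, 1 and 0 at an unadjusted p under 0.05. In the lists of costimulation, class I, macrophage, dendritic cell, B cell and bile duct genes, 0 fell by main probe sets at an unadjusted p under 0.05. Other probe sets of the class I genes Canx, Erap1 and Pdia3 and of the B cell gene Ighm were lower at that threshold. They differed by -0.80, -0.83, -0.74 and -0.60, and among them only that of Canx passed after adjustment (adjusted p = 0.0449). Other probe sets in these lists rose, among them those of Ccr2. Bile duct markers had the highest median of the lists examined, 2.12, with 3 of 4 higher (1 of 4 without the first Control array) and a summed intensity of 308 and 165.8 in Cnot3KO and 32.1 and 36.4 in Control. Without Epcam, an epithelial adhesion molecule, that sum was 108.4 and 82.9 in Cnot3KO and 21.3 and 27.1 in Control. The part of the bile duct markers in the class II result was not tested.

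**Figure D4:**
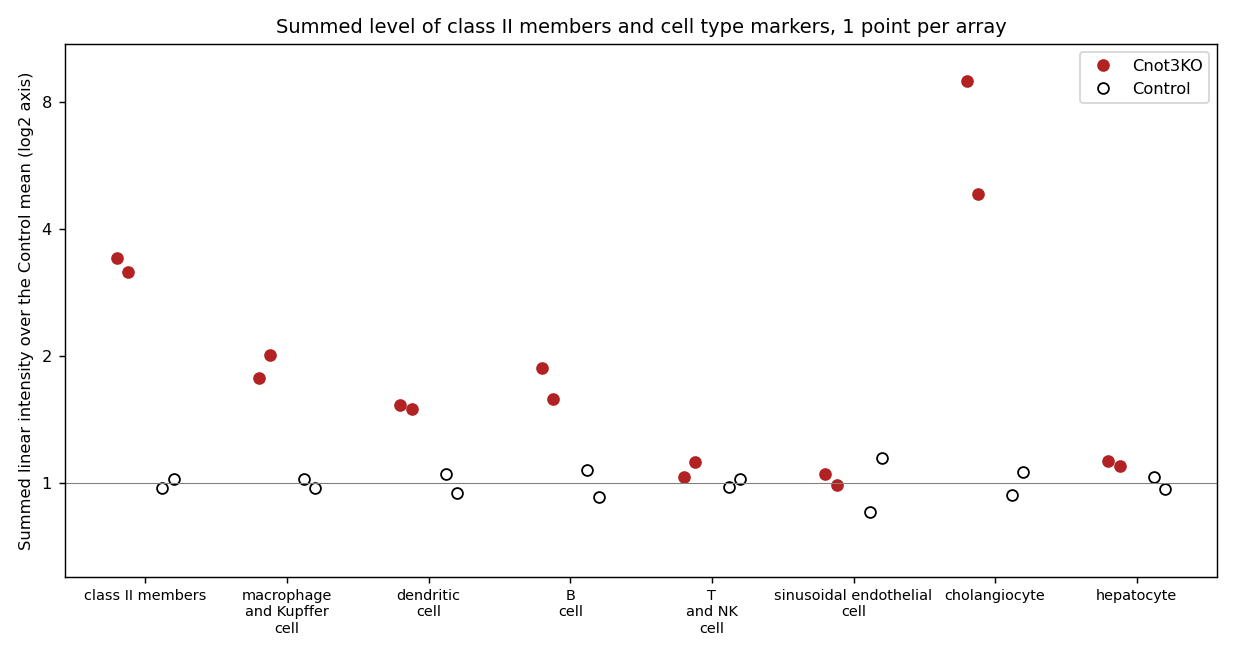
Summed linear intensity of the main probe sets of each list, divided by the mean of the Control arrays and drawn on a log2 axis, with 1 point per array (filled, Cnot3KO; open, Control; n = 2 each). The class II members are at 3.42 and 3.16 in Cnot3KO, the macrophage and Kupffer cell markers at 1.77 and 2.02, the dendritic cell markers at 1.53 and 1.50. The bile duct (cholangiocyte) markers lie above 4 on both Cnot3KO arrays. Without Epcam, which is not drawn separately, their values were 4.48 and 3.42.

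The pattern of the 4 arrays was compared between genes by the Euclidean distance of their centred levels from the mean profile of Cd74, H2-Aa, H2-Ab1 and H2-Eb1. That profile stood at 1.02 and 0.87 in Cnot3KO and -0.96 and -0.93 in Control. The nearest genes outside the pathway were Ints12, Slfn2, Ets2, Daxx and Gsta2, at distances of 0.02, 0.06, 0.09, 0.09 and 0.10. Ctss lay at 0.29 and H2-DMa at 0.53, close to the 0.51 of Cd74 itself, while Cd86 lay at 1.39 and Ciita at 1.94. Ranked by nearness among all genes, H2-Aa was at 23, H2-Ab1 at 25, Ctss at 76, H2-Eb1 at 250, Cd74 at 340 and H2-DMa at 375. Of these, H2-Aa, H2-Ab1, H2-Eb1 and Cd74 are themselves part of the profile. Genes outside the pathway therefore lay nearer to the profile than any of these members. With 4 arrays the distance mainly reads the size of the difference between the groups, and it carries no test.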

How the data were processed

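RNA of 4 livers was measured on Affymetrix GeneChip arrays for the mouse genome, of the kind with 3' probe sets. The authors made the deposited probe set intensity values with Robust Multi-array Average (RMA), version not given in the sources used here; the values are linear, up to 16933, and their log2 was used without a pseudocount. It is not stated if other arrays entered the same normalization, and the number of arrays limits the precision. Probe sets above the 20th percentile of their array on at least 1 array were kept (38405). Of all 45037, 34945 listed 1 gene, 932 several and 9160 none; only those listing 1 gene were named, and 34741 of these matched the RefSeq gene table. A gene's main probe set is its kept probe set with the highest mean.

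Groups were compared with lmFit and eBayes in limma 3.58.1 (R 4.3.3), 2-sided, on 5.40 degrees of freedom (3.40 of them from the prior), with a median SE of 0.192, adjusted by Benjamini-Hochberg, with a threshold of 0.05 for the adjusted p. The script was tested on simulated data. The members and lists were chosen with earlier results of these data known. Named were all members and some of the partners and regulators of class II genes (any could be). From each other list up to 4 called genes were named by size of difference (otherwise 2), besides the 5 genes nearest in pattern. Ifng, Cxcl9, Cxcl10, Ido1, Cd80, H2-K1, H2-D1, B2m, Canx, Erap1, Pdia3, Alb, Scaper and the uncalled markers were named after their values were seen. Alternatives were other filters, normalizations, centrings and priors, the replicate number as a block, probe sets without _x_at and _s_at, averaged probe sets per gene, the methods' t-test, other thresholds and each array left out. Tables were read with Python 3.11.15, numpy 2.4.6 and pandas 2.3.3, and figures drawn with matplotlib 3.10.9. Sequences are from RefSeq, and other data of the study were not used here.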

Additional observations from a re-analysis of the deposited data

How the results depend on the processing

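The 12 member probe sets and 6 genes that rose stayed within 1.5 times of those counts under most alternatives, and 0 fell under any. Exceptions were 6 probe sets of 10 without those ending in _x_at or _s_at, 7 at an adjusted p under 0.01, and 0 probe sets and 0 genes by the methods' t-test after Benjamini-Hochberg, which called 12 and 6 at an unadjusted p under 0.05; over all 38405 probe sets it called 0 higher and 1 lower after adjustment. The median difference over member genes, 1.56, was 1.62 with a mean above the 50th percentile, where fewer members were kept, 1.50 with quantile normalization, 1.51 centred on array medians, 1.50 centred on ribosomal protein genes, 1.50 without those probe sets, and 1.51 to 1.67 with 1 array left out. With 1 array left out, 8 to 11 probe sets and 5 to 6 genes rose; the lone array of a group is then assumed to vary like the others. Ciita turned to -0.030 centred on array medians, -0.042 centred on ribosomal protein genes and -0.14 with the mean of its probe sets, and ranged from -0.28 to 0.32 with 1 array left out; the cause was not tested. Of 432 counts in the other lists 51 moved by over 1.5 times, 20 of them with 1 array left out (given beside each list), 10 by the methods' t-test after adjustment, where every list had 0 higher, 6 by it unadjusted and 9 at an adjusted p under 0.01, where 0 regulators and 0 dendritic cell markers rose. With a mean above the 50th percentile 6 interferon genes rose. Over all probe sets, leaving out an array took the number that rose to between 1194 and 1973, against 3258.

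With the replicate number as a replicate block, 12 member probe sets and 6 genes rose. Deviations of same-numbered arrays correlated at r = 0.23 over only 2 pairs, so the arrays share a number and are not treated as paired. RMA intensities carry no detection call here, so a low level such as that of Ciita, Ifng or the B cell markers cannot be told from background.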
